A study of Gallus gallus with 10 samples.

Results

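The p53 arrest and feedback genes described here are 10 genes that the tumour suppressor p53 is known to switch on, or to be held in check by, in mammalian cells. They are CDKN1A, CCNG1, BTG2, GADD45A, MDM2, MDM4, PPM1D, SESN1, TP53INP1 and ZMAT3. They were chosen by symbol from the 19168 genes of the deposited expression table, where each of the 10 had 1 row and each passed the filter of a mean of at least 1 FPKM (fragments mapped to a gene, scaled to its length and to the size of the library). The samples were cranial neural folds, the dorsal head tissue from which neural crest cells arise, taken from chick embryos with 5 to 7 somites and measured by poly(A) RNA-seq. Of the 10 libraries, 5 came from embryos given the control morpholino (mmMO) and 5 from embryos given the NSD3 morpholino (NSD3 MO), each at 0.5 mM. Both groups carried 300 ng/µL of the carrier plasmid pCS2+myc and were electroporated bilaterally at HH stage 4 to 5, during gastrulation. Each library was a pool of 12 embryos out of 60 per condition. A morpholino is a synthetic oligomer that binds 1 RNA and keeps it from being translated or spliced, and NSD3 encodes a histone H3 lysine methyltransferase. The labels name 1 morpholino for each group, so an effect of losing NSD3 and an effect of that particular oligomer cannot be told apart. They do not say whether every cell of the folds took up the oligomer. In pooled tissue, fewer cells of a type and less RNA per cell cannot be told apart either.

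p53 is a transcription factor that is kept scarce in unstressed cells and accumulates after DNA damage, ribosome stress and other insults. Its arrest targets slow the cell cycle, with the CDK inhibitor p21 from CDKN1A as the best known. Its feedback targets, MDM2 and PPM1D among them, lower p53 activity again, and MDM4 is the partner of MDM2 that binds and inhibits p53 without a strong ubiquitin ligase activity of its own. In mouse embryos, raised p53 activity in the neural folds is known to deplete neural crest cells and to cause craniofacial defects. The roles given below are known from mammals unless stated.

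NSD3 RNA, the targeted transcript, ranged from 20.8 to 25.9 FPKM in the control pools and from 15.9 to 19.5 FPKM in the NSD3 MO pools. The groups did not overlap, and the log2 fold change of -0.34 had a limma adjusted p of 0.055, which passed the threshold in 2 of 21 alternatives (lowest adjusted p 0.036). The authors' deposited table lists NSD3 as lower, at -0.35 on the log2 scale (adjusted p 0.0044). Depth relative to the average library, read from the steps of low FPKM values, ran from 0.887 in NSD3 MO replicate 3 to 1.295 in NSD3 MO replicate 1, and lay between 0.977 and 1.055 in the controls. All 13 neural fold and neural crest markers were detected. Their summed level was 1225 to 2150 FPKM in controls and 952 to 1357 FPKM with the NSD3 MO, so the groups overlapped. Limma called 3 of the 13 lower, beside 1.02% of all tested genes. Summed over 10 head mesenchyme and mesoderm markers the level was 17.5 to 24.3 FPKM in controls and 25.9 to 39.2 FPKM with the NSD3 MO, so these groups did not overlap. None of these 10 markers was at 0 in every library, and 6 of them had means under 1 FPKM. FOXC2 was called higher, beside 1.5% of all tested genes. The 8 endoderm markers summed to at most 4.08 FPKM in any library. The part of these differences in tissue makeup in the results below was not tested. Control replicates 4 and 5 stood apart from control replicates 1 to 3: in 26.5% of tested genes both lay above, and in 27.7% both lay below, the range of the other 3.

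The 10 genes did not move together. CDKN1A, CCNG1, SESN1 and MDM2 rose with the NSD3 MO, MDM4 fell by a smaller amount, and PPM1D, BTG2, GADD45A, TP53INP1 and ZMAT3 did not pass the test. The test was a limma fit over all 11935 genes that passed the filter, with Benjamini-Hochberg adjustment and a threshold of 0.05. It called 1.5% of those genes higher, 1.02% lower and 2.52% in either direction, against 4, 1 and 5 of the 10 genes here. The 10 genes were chosen with earlier results of these data known, so this comparison of counts is a description. The control and NSD3 MO pools did not overlap for the 5 called genes, and overlapped for the other 5. Over all tested genes the NSD3 MO pools lay wholly above the controls for 3.68% and wholly below for 2.36%, or 6.04% together. The median log2 fold change of the 10 genes was 0.06, beside -0.003 over all tested genes, since rises, a fall and small differences stood side by side. The rises of the 4 genes were called in every one of the 21 alternative fits.

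**Figure D1:**
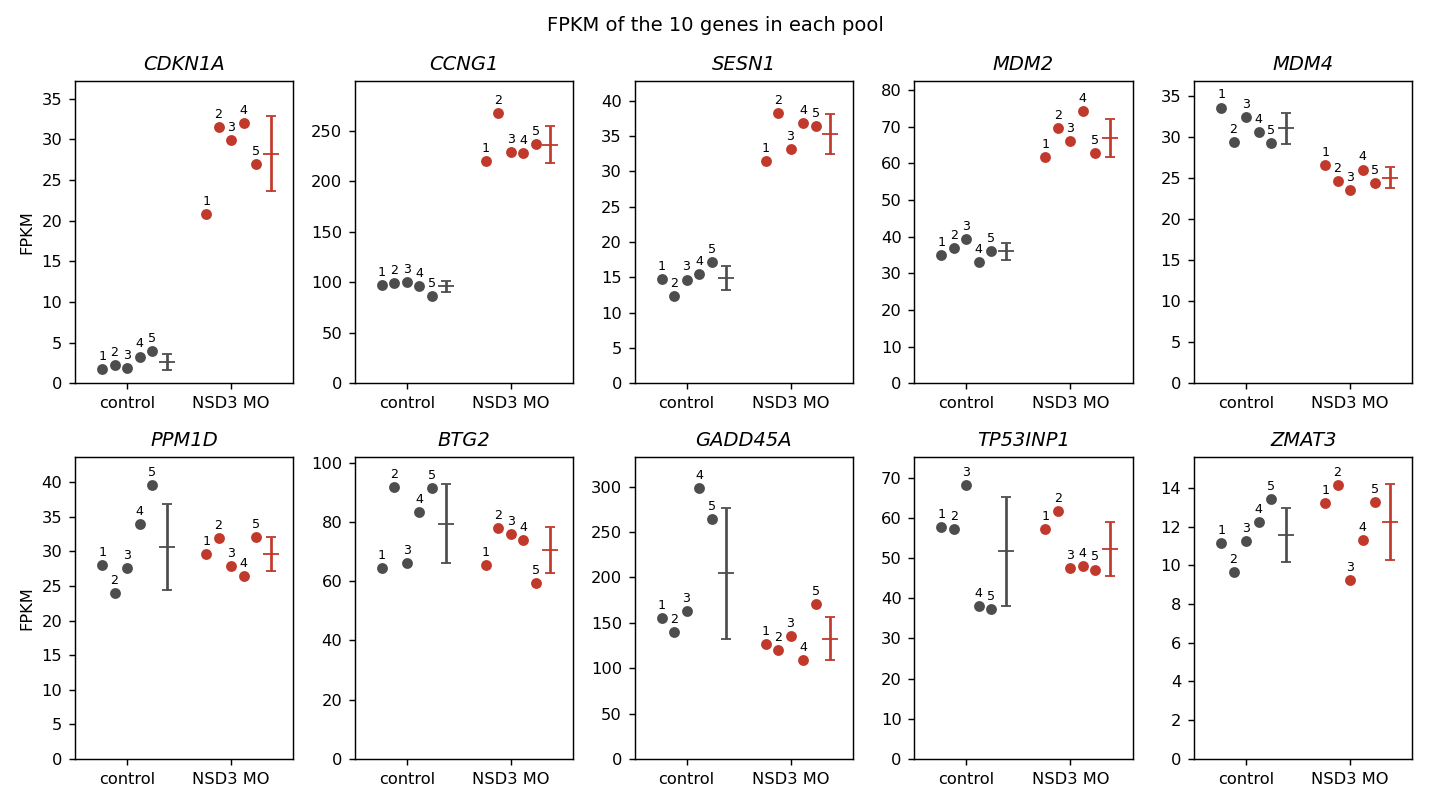
FPKM of each of the 10 genes (vertical axis, from 0) in the 5 control pools (grey) and the 5 NSD3 MO pools (red); digits are replicate numbers and the bar beside each group is the mean with its SD. The pools separate completely for CDKN1A, CCNG1, SESN1, MDM2 and MDM4. In the lower row control replicates 4 and 5 lie outside the range of the other controls for PPM1D, GADD45A, TP53INP1 and ZMAT3.

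Among the genes of cell cycle arrest, CDKN1A had the largest rise of all 11935 tested genes on the fitted scale. It stood at 1.75, 2.27, 1.92, 3.28 and 3.995 FPKM in control replicates 1 to 5. With the NSD3 MO it stood at 20.8, 31.5, 29.9, 32.05 and 26.9 FPKM in replicates 1 to 5. The lowest NSD3 MO pool was thus far above the highest control, and each NSD3 MO pool was 7.86 to 12.1 times the control mean. The means were 2.64 ± 0.962 and 28.2 ± 4.62 FPKM (SD, n = 5 each), and the log2 fold change was 3.23 (SE 0.193, 95% interval 2.81 to 3.65, limma adjusted p 3.68e-06). The fold changes given here are of log2(FPKM + 0.5), and adding 0.5 makes the change of a gene as low in controls as this one look smaller.

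CCNG1 encodes cyclin G1, a p53-induced cyclin that binds protein phosphatase 2A and acts on MDM2. Its control pools lay close together at 97.4, 99.5, 100.2, 96.3 and 86.8 FPKM. Its NSD3 MO pools had 220.3, 267.9, 228.5, 227.5 and 236.4 FPKM. All NSD3 MO pools were more than 100 FPKM above every control, and the coefficient of variation was 5.63% in controls and 7.90% with the NSD3 MO. The log2 fold change was 1.29 (SE 0.0652, 95% interval 1.15 to 1.43), with the smallest limma p of any tested gene (adjusted p 2.04e-06). In FPKM, its gain of 140.1 was the largest among the 10 genes, whereas the gain of CDKN1A was 25.6.

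BTG2 and GADD45A, the other arrest genes of the set, were not called. BTG2, an antiproliferative factor that promotes mRNA deadenylation and is also induced by growth factors, had 64.3 to 91.8 FPKM in controls (median 83.5) and 59.5 to 77.8 FPKM with the NSD3 MO (median 74.0). Its log2 fold change was -0.16 (95% interval -0.42 to 0.09, limma adjusted p 0.514). GADD45A, a stress-induced protein that binds PCNA and the mitotic kinase CDK1, had 155.1, 140.2, 163.2, 298.7 and 264.7 FPKM in control replicates 1 to 5. It had 126.3, 120.1, 135.2, 109.0 and 170.9 FPKM with the NSD3 MO. The values of 4 of the 5 NSD3 MO pools were below every control, and replicate 5 lay between control replicates 1 to 3 and control replicates 4 and 5. The log2 fold change of GADD45A was -0.57 (95% interval -1.02 to -0.13) and missed the threshold (limma adjusted p 0.168). Without control replicates 4 and 5, which held the 2 highest values, it was -0.22 (limma adjusted p 0.341).

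Of the feedback genes, MDM2 rose and MDM4 fell. MDM2, the ubiquitin ligase that marks p53 for degradation, had 34.9, 36.8, 39.3, 33.1 and 36.2 FPKM in the control pools and 61.8, 69.8, 66.3, 74.3 and 62.8 FPKM in the NSD3 MO pools. The 2 groups were separated by more than 20 FPKM. Its log2 fold change was 0.88 (SE 0.0694, 95% interval 0.73 to 1.03, limma adjusted p 2.9e-05). MDM4 had 33.6, 29.4, 32.3, 30.6 and 29.2 FPKM in controls and 26.6, 24.6, 23.6, 26.0 and 24.4 FPKM with the NSD3 MO. Every NSD3 MO pool lay below every control, by a narrow margin. The means of MDM4 were 31.0 ± 1.90 and 25.03 ± 1.23 FPKM (SD, n = 5 each), with a log2 fold change of -0.30 (SE 0.0645, 95% interval -0.44 to -0.16, limma adjusted p 0.033). This call was lost in 8 of 21 alternatives, with limma adjusted p up to 0.0935, and in each of them MDM4 remained lower.

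PPM1D encodes the phosphatase WIP1, which removes activating phosphates from p53 and from the kinase ATM. It stood at 28.0, 23.9, 27.5, 33.9 and 39.6 FPKM in controls and at 29.7, 31.9, 27.9, 26.5 and 32.1 FPKM with the NSD3 MO. The NSD3 MO pools lay within the range of the controls. Its log2 fold change was -0.03 (95% interval -0.29 to 0.24, limma adjusted p 0.934). PPM1D thus did not follow MDM2, the other feedback gene that p53 switches on, whose interval began at 0.73.

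The remaining 3 genes act on metabolism, p53 phosphorylation and RNA. SESN1, a sestrin that restrains the growth kinase complex mTORC1 and protects against oxidants, had 14.7, 12.4, 14.7, 15.5 and 17.2 FPKM in controls. It had 31.4, 38.3, 33.1, 36.9 and 36.4 FPKM with the NSD3 MO, so that the groups were far apart. Its log2 fold change was 1.22 (SE 0.0903, 95% interval 1.02 to 1.42, limma adjusted p 1.83e-05). TP53INP1, a nuclear protein that assists the phosphorylation of p53 and takes part in autophagy, had 57.6, 57.1, 68.1, 38.0 and 37.4 FPKM in controls and 57.2, 61.8, 47.4, 48.1 and 47.1 FPKM with the NSD3 MO. The controls thus spanned the NSD3 MO pools on both sides, with control replicates 4 and 5 lowest. Its log2 fold change was 0.05 (95% interval -0.30 to 0.40, limma adjusted p 0.911), and without control replicates 4 and 5 it was -0.22 (limma adjusted p 0.26). ZMAT3, a zinc finger protein that binds RNA and affects splicing and stability, had 9.64 to 13.4 FPKM in controls (median 11.3) and 9.23 to 14.1 FPKM with the NSD3 MO (median 13.2). Its log2 fold change was 0.07 (95% interval -0.19 to 0.34, limma adjusted p 0.801).

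**Figure D2:**
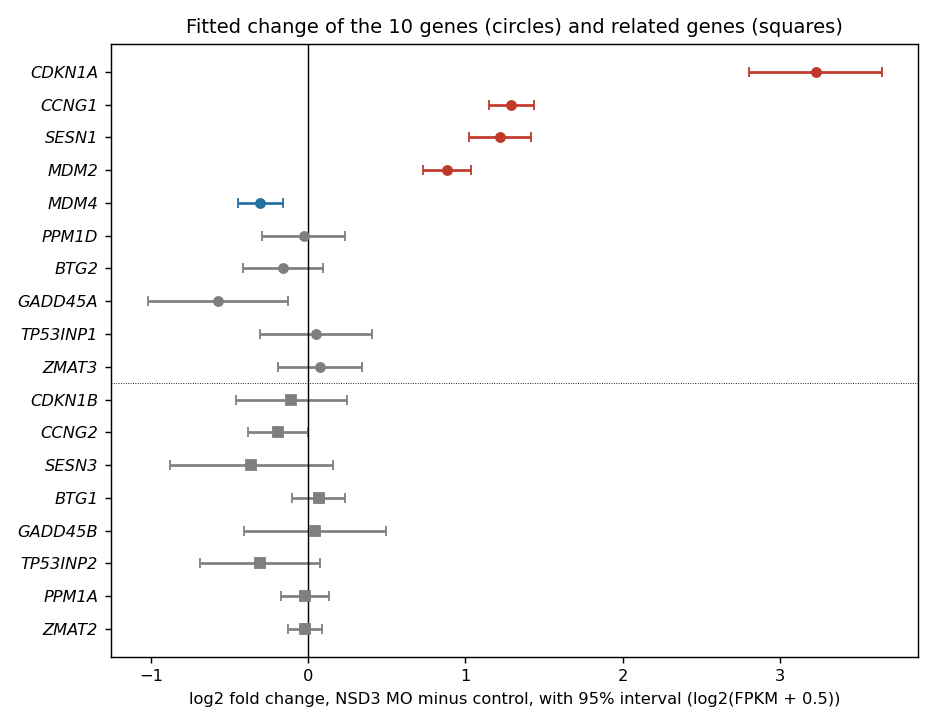
Fitted log2 fold change, NSD3 MO minus control, on the log2(FPKM + 0.5) scale (horizontal axis) with its 95% interval, for the 10 genes (circles, above the dotted line) and the related genes set beside them (squares); red is called higher, blue called lower and grey not called. The intervals of the 5 uncalled genes end at 0.40 or lower, below the start of the MDM2 interval at 0.73.

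Among the 4 rises, the CDKN1A interval lay above all others. CCNG1 and SESN1 had intervals that overlapped each other, and the MDM2 interval ended at 1.03, just above the start of the SESN1 interval at 1.02. For each of the 5 uncalled genes the upper end of the 95% interval lay below the lower end for MDM2, the smallest of the 4 rises. The upper ends were 0.24 for PPM1D, 0.09 for BTG2, -0.13 for GADD45A, 0.40 for TP53INP1 and 0.34 for ZMAT3. A smaller rise is within the interval for each of these except GADD45A. Exact permutation tests over all arrangements of the pools, two-sided, gave 0.007937 for each of the 5 called genes, the smallest p this design allows. The pools of these 5 genes did not overlap, which fixes that p, so it restates the separation and adds no further support. The same exact test gave 0.04762 for GADD45A, 0.2381 for BTG2, 0.5873 for ZMAT3, 0.7778 for TP53INP1 and 0.8413 for PPM1D.

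The order of levels among the 10 genes changed with the rises. In controls the mean FPKM was 204.4 for GADD45A, 96.0 for CCNG1, 79.4 for BTG2, 51.6 for TP53INP1, 36.1 for MDM2, 31.0 for MDM4, 30.6 for PPM1D, 14.9 for SESN1, 11.5 for ZMAT3 and 2.64 for CDKN1A. Neighbours in that order had overlapping ranges except GADD45A and CCNG1, PPM1D and SESN1, and ZMAT3 and CDKN1A. With the NSD3 MO it was 236.1 for CCNG1, 132.3 for GADD45A, 70.5 for BTG2, 67.0 for MDM2, 52.3 for TP53INP1, 35.2 for SESN1, 29.6 for PPM1D, 28.2 for CDKN1A, 25.03 for MDM4 and 12.2 for ZMAT3. There the neighbours with overlapping ranges were BTG2 and MDM2, SESN1 and PPM1D, PPM1D and CDKN1A, and CDKN1A and MDM4. CDKN1A was the lowest of the 10 genes in all 5 controls and held place 7 to 9 in the NSD3 MO pools. CCNG1 was the highest in all 5 NSD3 MO pools, a place that GADD45A held in all 5 controls. Summed over the 4 genes that rose, the level was 144.1 to 156.1 FPKM in controls and 334.3 to 407.5 FPKM with the NSD3 MO.

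Each gene was then compared within each pool with a related gene, so that each change is set beside a gene of the same family or role. None of the 8 related genes other than MDM4 passed the limma test, and their adjusted p ran from 0.277 for CCNG2 to 0.941 for GADD45B. Over all tested genes limma called 2.52% in either direction, so no call among 8 genes is near that share. The ratio of each gene to its relative, on FPKM + 0.5, was compared between groups by an exact two-sided permutation test, with adjustment over the 9 ratios. CDKN1A, set against the CDK inhibitor gene CDKN1B (p27), went from 0.0866 to 0.137 of the CDKN1B level in controls to 0.773 to 1.45 of it with the NSD3 MO. The MDM2 to MDM4 ratio went from between 1.04 and 1.25 to between 2.30 and 2.82. The CCNG1 to CCNG2 ratio went from between 1.31 and 1.87 to between 3.78 and 5.09, and the SESN1 to SESN3 ratio from between 3.12 and 10.3 to between 12.4 and 24.0. For each of these ratios all 5 NSD3 MO pools lay above all 5 controls. The differences in log2 ratio were 3.34, 1.19, 1.48 and 1.58 in that order, each with an exact p of 0.007937 and 0.0143 after adjustment. CDKN1A, CCNG1, SESN1 and MDM2 were each separated between the groups before any ratio was taken. These p-values thus restate those rises and add no further support. For MDM2 over MDM4 the outcome was fixed, since MDM4 was separated the other way.

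The ratio of GADD45A over GADD45B, its close relative, fell. It was 11.004, 11.2, 11.3, 14.4 and 9.17 in the controls and 7.86, 6.42, 8.09, 7.06 and 7.46 in the NSD3 MO pools. All 5 NSD3 MO pools were below all 5 controls. The log2 ratio fell by 0.62 (exact permutation p 0.007937, adjusted 0.0143), and by 0.60 without control replicates 4 and 5 (adjusted p 0.0321). Complete separation fixes each of these p-values, so the second restates the first and adds no further support. This pair was chosen with earlier results of these data known. A ratio shows that the genes changed unequally, not which of them changed. GADD45B had 12.1 to 28.4 FPKM in controls and 15.01 to 22.5 FPKM with the NSD3 MO. Like GADD45A it was highest in control replicates 4 and 5, so both genes shared that difference between controls. The ratios BTG2 to BTG1, TP53INP1 to TP53INP2, PPM1D to PPM1A and ZMAT3 to ZMAT2 differed by -0.23, 0.36, -0.01 and 0.09 on the log2 scale, with adjusted exact p of 0.238, 0.255, 0.921 and 0.571.

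**Figure D3:**
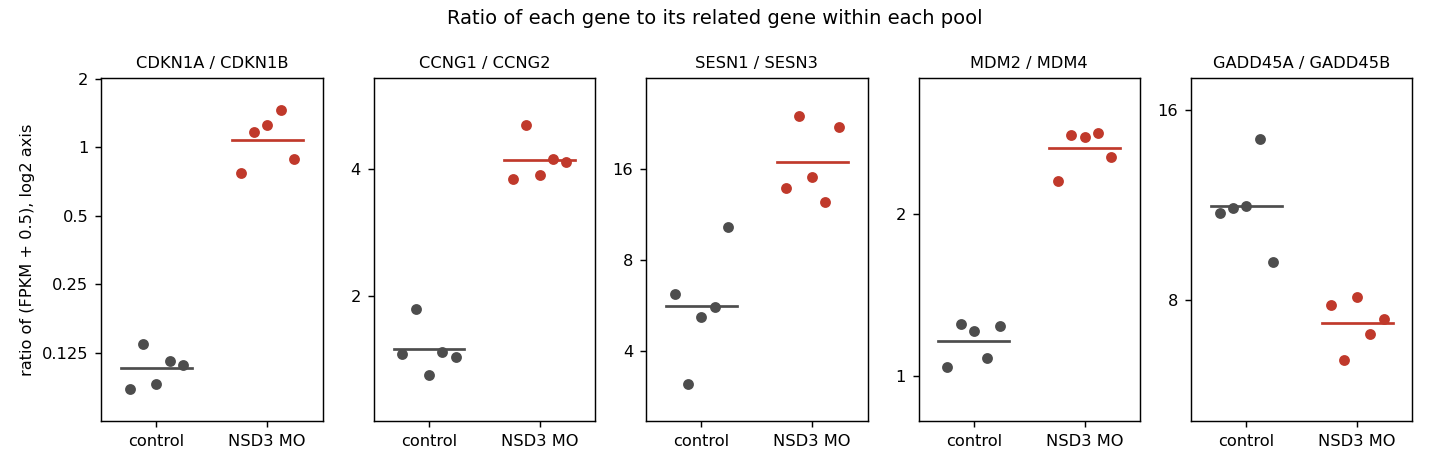
Ratio of each gene to its related gene within each pool, computed on FPKM + 0.5 and drawn on a log2 axis, for the 5 pairs whose ratio differed; points are pools and lines are geometric means. The first 4 ratios are higher in every NSD3 MO pool than in any control, and GADD45A over GADD45B is lower in every NSD3 MO pool.

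The sestrin family also includes SESN2, which is induced by amino acid and endoplasmic reticulum stress as well as by p53. The table holds 2 rows with this symbol, so its level is uncertain. The row with the higher level averaged 21.5 ± 2.88 against 18.4 ± 1.49 FPKM, control against NSD3 MO (SD, n = 5 each), and the other averaged 5.37 ± 2.93 and 3.49 ± 1.04 FPKM. Both had negative log2 fold changes, -0.22 and -0.45, and neither passed the limma test (adjusted p 0.255 and 0.486). Unlike SESN1, neither row of SESN2 was higher with the NSD3 MO. The remaining relatives with the smallest p were the phosphatase genes PPM1G, with a log2 fold change of 0.20 (limma adjusted p 0.143), and PPM1L, with -0.27 (limma adjusted p 0.277). Over all 14 tested relatives of the 10 genes, limma called 0 higher and 0 lower, with 1 and 1 at an unadjusted p under 0.05. By unadjusted limma p, GADD45A at 0.0163 held place 1161 of 11935 tested genes and BTG2 at 0.195 held place 4534. A p under 0.05 was thus common, and its share over all tested genes is not given here. Limma called 1.5% higher and 1.02% lower over all tested genes, so 0 of 14 is near those shares. The authors' deposited table lists 0 of the 14.

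Control replicates 4 and 5 lay outside the range of the other controls for 7 of the 10 genes, 5 above and 2 below. Over all tested genes 26.5% lay above and 27.7% below. A count over 10 genes is too small to set them apart from the whole table, and no test was made. In control replicates 4 and 5, CDKN1A, SESN1, GADD45A, PPM1D and ZMAT3 lay above the range of control replicates 1 to 3, and CCNG1 and TP53INP1 lay below it. For CDKN1A that meant 3.28 and 3.995 FPKM against at most 2.27 FPKM, which is small beside the 20.8 FPKM of the lowest NSD3 MO pool. For PPM1D it meant 33.9 and 39.6 FPKM against at most 28.0 FPKM, and for TP53INP1 38.0 and 37.4 FPKM against at least 57.1 FPKM. For these last genes the spread among controls exceeded any difference between the groups. In a fit that left both out, the log2 fold change was 3.52 for CDKN1A, 1.25 for CCNG1, 1.31 for SESN1, 0.85 for MDM2 and -0.34 for MDM4, all still called by limma. In the same fit PPM1D stood at 0.16, BTG2 at -0.06 and ZMAT3 at 0.17, none of them called (limma adjusted p 0.336, 0.825 and 0.5).

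Among the NSD3 MO pools, replicate 1 had the lowest level of each of the 4 genes that rose. It held 20.8 FPKM of CDKN1A, where the other 4 pools held 26.9 to 32.05 FPKM. Of the 179 genes called higher over the whole table, replicate 1 was the lowest NSD3 MO pool for 48.6%. Its NSD3 level of 17.3 FPKM was the second lowest, and its relative depth of 1.295 was the highest of the 10 libraries. The part of depth in this order was not tested. Without this pool the log2 fold changes of CDKN1A, CCNG1, SESN1 and MDM2 were all called.

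The authors' deposited table of changed genes lists 6 of the 10 genes, where it lists 3.52% of all rows of the expression table. In the authors' deposited table the log2 fold changes are 3.41 for CDKN1A, 1.30 for CCNG1, 1.24 for SESN1, 0.89 for MDM2 and -0.31 for MDM4. The sixth is GADD45A, listed in the authors' deposited table at -0.63 with an adjusted p of 0.0382, which limma on FPKM did not call. The mean counts in the authors' deposited table are 434.9 for CDKN1A, 487.3 for SESN1, 1067 for MDM4, 1289 for MDM2, 2245 for GADD45A and 4902 for CCNG1. CDKN1A thus rests on the fewest reads of the 6. The authors' deposited table does not list PPM1D, BTG2, TP53INP1 or ZMAT3.

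Other parts of the p53 pathway were read from lists, beside the 1.5% called higher and 1.02% called lower over all genes. The lists were chosen with earlier results of these data known, so their counts are a description and no independent comparison with these shares. Counts at an unadjusted p under 0.05, here and in the later lists, have no share over all genes beside them. They are no result about a list, since such p-values were common over all tested genes. Of 26 tested genes of p53 regulation, limma called 0 higher and 1 lower, with 2 and 3 at an unadjusted p under 0.05, and the authors' deposited table lists CHEK1 alone. CHEK1, a checkpoint kinase that phosphorylates p53, averaged 61.0 ± 5.14 FPKM in controls, against 49.1 ± 3.22 FPKM in NSD3 MO pools (log2 fold change -0.31, limma adjusted p 0.0462). Its call was lost in 13 of 21 alternatives. The others of this list with the smallest p did not pass: GNL3, a nucleolar protein that binds MDM2, had a log2 fold change of 0.16, the ubiquitin ligase gene RCHY1 had 0.22 and the damage kinase gene ATR had -0.25 (limma adjusted p 0.12, 0.208 and 0.238).

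Among 35 tested p53 targets of DNA repair, metabolism and other roles, 3 were called higher and 0 lower by limma, with 7 and 2 at an unadjusted p under 0.05, and a median log2 fold change of 0.02. INKA2, an inhibitor of the kinase PAK4, rose from 1.30 ± 0.267 to 10.8 ± 1.87 FPKM, and GDF15, a stress-induced cytokine, rose from 0.839 ± 0.558 to 4.60 ± 0.863 FPKM (SD, n = 5 each). The control mean of GDF15 was under the filter of 1 FPKM, so it entered the test only through the NSD3 MO pools, and its call adds no support to the count of 3. ISG20, an RNA exonuclease gene, rose from 21.3 ± 2.66 to 31.1 ± 3.65 FPKM, a call lost in 3 of 21 alternatives. PHLDA3, an inhibitor of the kinase AKT, averaged 0.405 ± 0.291 and 1.62 ± 0.769 FPKM in controls and NSD3 MO pools (limma adjusted p 0.0572). It too passed the filter only through the NSD3 MO pools, and it was at 0 in control replicate 1. The authors' deposited table lists 3 of the 35 as higher and 2, XPC and TP53I11, as lower. Of 14 tested targets that act in cell death 3 were called higher, EDA2R, TNFRSF10B and BAK1, with log2 fold changes of 2.499, 2.08 and 0.52. In the same list 0 were called lower by limma, 4 had an unadjusted p under 0.05 upward and 3 downward, and TRAF4 stood at -0.41 (limma adjusted p 0.194). Both lists thus held a few called genes among a larger number that were tested and not called. The list of repair, metabolism and other targets named 44 genes, of which 38 were found by symbol and 35 were tested. For cell death these numbers were 20, 15 and 14. BAX, BBC3 and FAS were among the cell death genes not tested, so nothing is said of them here.

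Genes of the cell cycle itself, the process that p21 restrains, were also read from lists, where 0 calls is close to the 2.52% called in either direction over all genes. Of 29 tested G1 and S phase genes limma called 0 in either direction, with 1 higher and 2 lower at an unadjusted p under 0.05, a median log2 fold change of -0.0004 and 0 listed in the authors' deposited table. The ribonucleotide reductase gene RRM2 had a log2 fold change of 0.25, E2F1, which drives S phase genes, had -0.28, the pocket protein gene RBL1 had -0.19 and the replication licensing gene CDT1 had -0.18 (limma adjusted p 0.12, 0.18, 0.207 and 0.292). Of 26 G2 and mitosis genes limma also called 0, with 1 higher and 6 lower at an unadjusted p under 0.05 and a median of -0.09. The share of all tested genes under that unadjusted p is not given here, so the 6 lower are not read as a fall of this list. FOXM1, a transcription factor of mitotic genes, averaged 27.1 ± 1.55 and 21.1 ± 2.93 FPKM with no overlap (limma adjusted p 0.0657), and the authors' deposited table lists it as lower. The FOXM1 log2 fold change was called lower in 3 of 21 alternatives, namely with array quality weights, with FPKM rescaled to equal totals, and without NSD3 MO replicate 3 (limma adjusted p 0.0445, 0.0373 and 0.0346). The mitotic kinase gene PLK1 had -0.21, also without overlap, BUB1B had -0.22 and CCNB1, the mitotic cyclin, had 0.17 (limma adjusted p 0.104, 0.162 and 0.154).

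**Figure D4:**
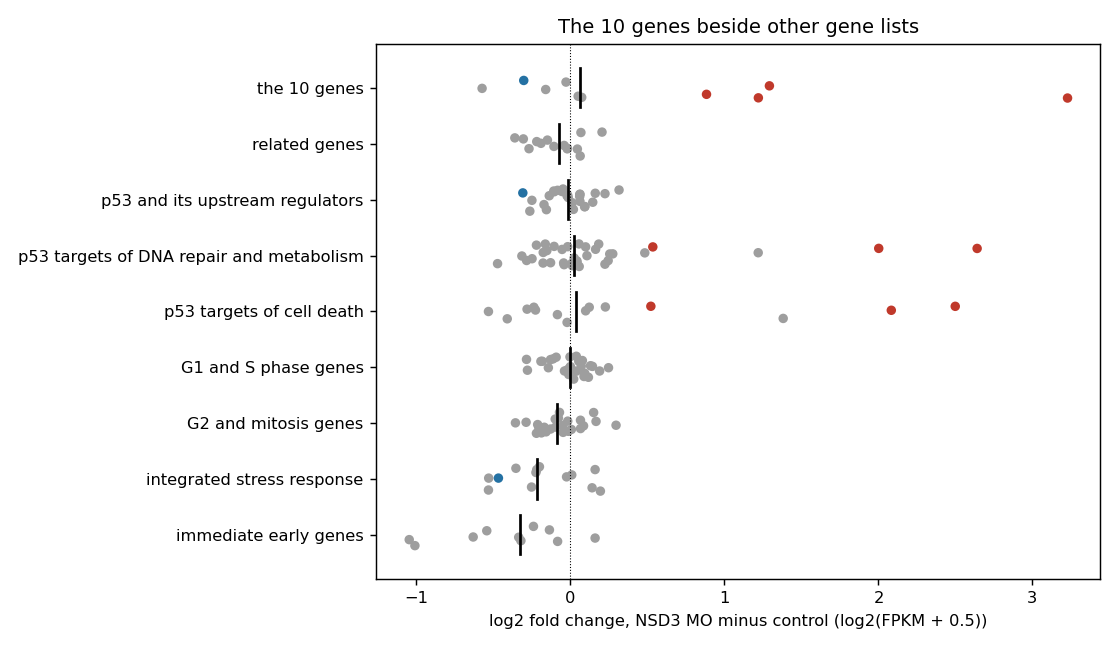
Log2 fold change of each tested gene, NSD3 MO minus control on the log2(FPKM + 0.5) scale (horizontal axis), in the 10 genes and 8 other lists; red is called higher, blue called lower, grey not called, vertical bars are list medians and the vertical scatter within a row has no meaning. Each list has its median between -0.33 and 0.06, and the lists of p53 targets each have a few genes far to the right.

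CDKN1A, SESN2 and BTG2 can also be induced without p53, so genes of 2 other responses were set beside them. Over all tested genes limma called 1.5% higher and 1.02% lower, so lists this short are expected to hold few calls or none. The route of induction was not tested. Of 13 tested genes of the integrated stress response, a list that also holds genes of the unfolded protein response, limma called 0 higher and 1 lower. In this list 1 and 2 had an unadjusted p under 0.05. The gene called lower belongs to the unfolded protein response. That gene was XBP1, a transcription factor gene, which fell from 95.4 ± 8.95 to 69.0 ± 7.98 FPKM (SD, n = 5 each, limma adjusted p 0.0205), a call lost in 5 of 21 alternatives. HSPA5, a chaperone of the endoplasmic reticulum, had a log2 fold change of 0.19 and ASNS, asparagine synthetase, had 0.14 (limma adjusted p 0.235 and 0.366). Of 10 tested immediate early genes limma called 0, with 0 higher and 1 lower at an unadjusted p under 0.05, and the authors' deposited table lists 0 of them. KLF4 had a log2 fold change of -1.05, EGR2 of -0.54, IER5 of -0.34 and FOS of -1.01, none called (limma adjusted p 0.209, 0.384, 0.496 and 0.543). For FOS and IER5 the sign changed without control replicates 4 and 5, to 0.46 and 0.08.

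The genes most like CDKN1A and CCNG1 in pattern were found from the root mean square difference of log2(FPKM + 0.5), each gene set to its own control mean, over the 10 libraries. Nearest to CDKN1A were INKA2 at 0.523, EDA2R at 0.527 and TDH, threonine dehydrogenase, at 0.619 log2 units. TDH went from 1.85 ± 0.501 to 13.3 ± 2.31 FPKM. Nearest to CCNG1 was SESN1 at 0.165 log2 units, followed by ADAM12, a metalloprotease gene, at 0.185 and RAB43, a small GTPase gene, at 0.223. ADAM12 went from 8.14 ± 0.932 to 19.0 ± 2.504 FPKM and RAB43 from 10.6 ± 1.72 to 22.3 ± 1.13 FPKM. Of all tested genes with a symbol, the one closest to CCNG1 was thus another of the 10 genes. This is a description over the same libraries that show the rise, and it carries no test.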

How the data were processed

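The authors deposited FPKM for 10 libraries, per the file headers, and a table of changed genes with log2 fold changes, adjusted p-values and mean counts that are not whole numbers (deposited signal values). The submitters' processing notes name Trimmomatic 0.32, STAR 2.5.3a and DESeq2 1.28.1 with build GRCg6a. With their roles, the counting tool and strand use not given in the sources used here, reads shared with overlapping or antisense genes cannot be separated. No coordinates are printed, because the reference table is of another build. Read totals are unknown. Relative depth came from FPKM steps.

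Symbols were the table's Ensembl symbol, else its protein database symbol, taking the row with the highest mean. Tests were run with limma 3.58.1 (R 4.3.3) with a mean-variance trend on log2(FPKM + 0.5) for genes with a mean of at least 1 FPKM, and Benjamini-Hochberg adjustment over those 11935 genes. Python 3.11.15 ran the exact permutation tests. Intervals are 95% intervals of the fit. The fit was tested on simulated data. The 10 genes, the lists, the pairs of relatives and the alternatives were chosen with earlier results of these data known. Named genes are the 10 genes, their relatives, NSD3, up to 4 genes of each other list with the smallest adjusted p, and 3 genes nearest in pattern to CDKN1A and to CCNG1. FOXC2, XPC and TP53I11 were named after their values were seen, and BAX, BBC3 and FAS were named as genes not tested. Replicates are separate pools of embryos per the labels. A promoter motif search was planned and not run, as no sequence table was at hand.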

Additional observations from a re-analysis of the deposited data

Results flagged for a closer look

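A library far from the other 4 of its group was found in 5 of 104 groups of 5 libraries examined, by the gap to the nearest library as a share of the group's range, and chance gives about 1 in 20. None of the 5 concerned the 10 arrest and feedback genes. EDA2R stood at 11.9 FPKM in NSD3 MO replicate 1, below 13.9 to 14.6 FPKM in the other 4, in the pool where CDKN1A, CCNG1, SESN1 and MDM2 were also lowest. ATR stood at 9.36 FPKM in NSD3 MO replicate 4, above 7.84 to 8.26 FPKM in the others. In NSD3 MO replicate 3, TRAF4 was high at 50.05 FPKM (others 40.9 to 42.1) and RBL1 was low at 23.2 FPKM (others 28.1 to 29.3). ASNS was high in NSD3 MO replicate 2 at 21.8 FPKM (others 19.2 to 19.9).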

How the results depend on the processing

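The rises of CDKN1A, CCNG1, SESN1 and MDM2 were called in all 21 alternative fits, with log2 fold changes of 3.03 to 3.52, 1.25 to 1.32, 1.16 to 1.31 and 0.84 to 0.91. The count of the 10 genes called lower was 1. It went to 0 without the mean-variance trend (MDM4 adjusted p 0.0525), with the replicate block (0.0765), and without any 1 of control replicates 1 and 4 and NSD3 MO replicates 2, 3, 4 and 5, a range of 0 to 1 over single libraries left out. The MDM4 log2 fold change stayed between -0.35 and -0.27, and the cause of the lost call was not tested. The count of all genes called higher was 179, and 70 to 210 when 1 library was left out. Against 179 it was lower by more than 1.5 times for control replicate 1 (114), control replicate 4 (108) and NSD3 MO replicates 2 (70), 3 (86), 4 (82) and 5 (94). The count of all genes called lower was 122, and 33 to 151 when 1 library was left out. There the like held for control replicates 1 (73), 2 (60) and 4 (60) and NSD3 MO replicates 1 (70), 2 (33), 3 (68), 4 (44) and 5 (44). Array quality weights gave 344 and 207. With FPKM rescaled to equal totals 125 were higher and 173 lower, so rises made up 41.9% of calls, against 59.5%. Whether libraries of the same replicate number form pairs is not said by the labels and was not settled. The correlations of their deviations from the group means were 0.214, -0.035, -0.128, -0.065 and 0.34. Between unlike numbers they ran from -0.319 to 0.255. The replicate block gave 97 genes higher and 62 lower. With the replicate block the ratios of CDKN1A, MDM2, CCNG1, SESN1 and GADD45A to their relatives were no longer called (adjusted p 0.113), where sign flips over 5 pairs allow no p under 0.0625. Their differences of 3.34, 1.19, 1.48, 1.58 and -0.62 are those without the block by arithmetic and say nothing of stability.

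Genes near 0 changed sign. With 1 library left out, the log2 fold change ranged from -0.055 to 0.159 for TP53INP1, -0.110 to 0.069 for PPM1D, -0.229 to 0.021 for CDKN1B, -0.070 to 0.230 for GADD45B, -0.071 to 0.011 for PPM1A and -0.059 to 0.058 for PPM1D over PPM1A. Control replicate 2, 3 or 5 was the library left out at each of these ends. Leaving out control replicates 4 and 5 together gave -0.22 for TP53INP1, 0.16 for PPM1D, 0.13 for CDKN1B, 0.023 for PPM1A, 0.13 for PPM1D over PPM1A, 0.46 for FOS and 0.079 for IER5. Array quality weights gave a TP53INP1 log2 fold change of -0.082, a PPM1D log2 fold change of 0.071, and values of 0.019 for CDKN1B and 0.011 for PPM1A. Of 336 list counts under alternatives, 309 were within 1.5 times the count given. Most of the counts given were 0, so this share says little of the stability of the others. The count called lower was 1 in p53 regulation and 1 in the integrated stress response. These moved in 13 and 5 of 21 alternatives. SESN3, GDF15, PHLDA3, KLF4 and EGR2 had no value when the filter was raised to a mean of 5 FPKM.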
